A study of Caenorhabditis elegans with 2 samples.

Results

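Promoter peaks of a single gene were records of the conservative ChIP-seq peak list, chosen by the place of their summit. The summit lay in the promoter window of a protein-coding gene on one strand. It also lay away from the start of any protein-coding transcript on the other. This window covered 500 bp before and 100 bp after an annotated transcript 5′ end. No protein-coding transcript on the opposite strand had a 5′ end within 500 bp of the summit. Of 709 records in the list, 257 met the rule (36.2%), 114 lay in promoters that face a divergent gene within that distance, and 338 lay outside promoter windows. The 257 records mapped to 246 genes. The name holds for protein-coding transcripts on the opposite strand only. In 4 records the summit lay in the windows of 2 genes on the same strand (egl-30 and C53H9.4, tub-2 and Y71G12A.5, F55A11.6 and F55A11.11, pqn-51 and K11D12.14), and non-coding genes were not considered by the rule.

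The records came from whole young adult Caenorhabditis elegans in which the gene Y67H2A.10, in its own place on chromosome IV, carries a TY1, EGFP and 3xFLAG tag put in by CRISPR (strain RW12295, allele st12295). The worms were taken at 63 hours, from larvae starved at the L1 stage after bleaching, the chromatin was sonicated to 200 to 800 bp, and an antibody against GFP was used. There were 2 biological replicates of this 1 strain, which form 1 group, so nothing was compared between conditions. Worms without the tag were not analysed here, whole animals mix all tissues, and the peak lists hold neither read counts nor expression. Depth is therefore unknown, and no tissue marker could be checked.

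A promoter is the stretch of DNA around the start of a gene where transcription is set up, and transcription factors usually bind at or upstream of that start. In C. elegans most transcripts are trans-spliced, which replaces their original 5′ end with a short leader, so that an annotated 5′ end can lie some way downstream of where transcription begins. Y67H2A.10 encodes a protein with zinc fingers of the C2H2 type, which in many proteins contact DNA. Neighbouring worm genes often lie close together, head to head with a shared intergenic region or in tandem on one strand. The records described here are those where protein-coding transcripts start nearby on only one strand.

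The sequences under the 10 strongest summits are shown first, since they let the strongest sites be compared base by base. Each is the 101 bases centred on the summit, 5′ to 3′ on the strand of the gene, from the RefSeq sequence of WBcel235 (ce11). Sites touching an annotated exon were passed over. Capitals mark CGCGC or its reverse complement GCGCG.
tasp-1, chrIII:10759196-10759296, plus strand: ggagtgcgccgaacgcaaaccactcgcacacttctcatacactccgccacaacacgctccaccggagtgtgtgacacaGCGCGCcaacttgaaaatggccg
rpl-3, chrIII:3867542-3867642, plus strand: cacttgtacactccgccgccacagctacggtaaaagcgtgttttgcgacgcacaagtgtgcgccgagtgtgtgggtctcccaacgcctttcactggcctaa
mog-4, chrII:14561802-14561902, minus strand: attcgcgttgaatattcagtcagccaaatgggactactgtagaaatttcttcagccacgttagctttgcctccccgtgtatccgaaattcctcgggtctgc
mtcu-2, chrII:10033628-10033728, minus strand: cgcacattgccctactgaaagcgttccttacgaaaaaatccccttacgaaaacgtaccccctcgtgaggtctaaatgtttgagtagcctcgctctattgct
cdc-48.1, chrII:10563516-10563616, minus strand: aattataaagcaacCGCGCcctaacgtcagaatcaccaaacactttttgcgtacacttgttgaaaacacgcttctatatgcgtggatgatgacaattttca
tos-1, chrV:9344272-9344372, minus strand: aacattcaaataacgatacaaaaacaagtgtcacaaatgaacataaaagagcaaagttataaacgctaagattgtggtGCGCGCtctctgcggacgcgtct
rpl-35, chrIII:7854649-7854749, plus strand: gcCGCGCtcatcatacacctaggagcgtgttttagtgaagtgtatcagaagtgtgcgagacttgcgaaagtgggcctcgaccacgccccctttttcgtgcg
hsp-1, chrIV:17278511-17278611, plus strand: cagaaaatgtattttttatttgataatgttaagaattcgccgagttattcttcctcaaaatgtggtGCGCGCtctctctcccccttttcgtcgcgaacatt
K10D2.5, chrIII:5172584-5172684, plus strand: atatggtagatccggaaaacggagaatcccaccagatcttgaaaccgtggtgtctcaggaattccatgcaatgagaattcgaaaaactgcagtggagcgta
rps-24, chrIV:385501-385601, plus strand: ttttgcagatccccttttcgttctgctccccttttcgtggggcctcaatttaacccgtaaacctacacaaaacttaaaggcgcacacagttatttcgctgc
Of these 10 windows, 5 held the capitalised word (tasp-1, cdc-48.1, tos-1, rpl-35 and hsp-1) and 5 held none. The windows of tos-1 and hsp-1 shared a run of 17 bases that contains the word. Strong signals thus occurred both with and without it.

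A second set shows the longer word ACGCGC, or its reverse complement GCGCGT, in capitals, in 3 windows that held it, at records of signal 253, 236 and 152. They show the word on either strand of the gene, and are not the 3 strongest records with it. These 3, and the sets below, were chosen after the data were seen.
hsp-3, chrX:6092141-6092241, minus strand: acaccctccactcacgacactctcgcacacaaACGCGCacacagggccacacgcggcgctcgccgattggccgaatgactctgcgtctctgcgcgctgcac
W03C9.5, chrII:11967678-11967778, minus strand: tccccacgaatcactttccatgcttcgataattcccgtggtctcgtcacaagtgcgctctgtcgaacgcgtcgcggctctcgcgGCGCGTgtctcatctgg
rsp-2, chrII:11453173-11453273, minus strand: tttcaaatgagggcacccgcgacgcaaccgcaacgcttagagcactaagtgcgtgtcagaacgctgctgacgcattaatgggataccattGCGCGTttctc
The word lay on the gene's strand upstream of hsp-3, which encodes an Hsp70 chaperone of the endoplasmic reticulum, and on the other strand at W03C9.5 and at rsp-2, an SR-type splicing factor gene.

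Some windows repeat each other over long stretches. In the next 4, capitals mark bases in runs of 24 or more that were identical in another single-gene promoter record. The stretch of C26B2.7 runs in the opposite direction to the others.
rps-24, chrIV:385501-385601, plus strand: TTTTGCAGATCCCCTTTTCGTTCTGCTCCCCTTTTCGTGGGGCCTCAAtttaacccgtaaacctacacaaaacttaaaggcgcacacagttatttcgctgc
eel-1, chrIV:3050432-3050532, minus strand: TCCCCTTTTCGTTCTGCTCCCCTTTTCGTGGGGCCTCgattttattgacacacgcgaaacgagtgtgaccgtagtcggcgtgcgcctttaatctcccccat
atad-3, chrII:10248503-10248603, plus strand: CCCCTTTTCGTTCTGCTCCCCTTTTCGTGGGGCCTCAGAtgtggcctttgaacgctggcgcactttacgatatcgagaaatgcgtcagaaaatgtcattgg
C26B2.7, chrIV:8015813-8015913, plus strand: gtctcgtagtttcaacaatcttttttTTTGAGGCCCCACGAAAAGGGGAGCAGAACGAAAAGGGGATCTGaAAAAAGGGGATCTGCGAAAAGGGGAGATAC
In the last 3, of a second family, capitals have the same meaning.
mtcu-2, chrII:10033628-10033728, minus strand: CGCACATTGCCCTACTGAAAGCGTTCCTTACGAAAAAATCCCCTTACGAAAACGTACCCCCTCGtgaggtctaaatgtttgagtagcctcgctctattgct
unc-85, chrII:4701761-4701861, plus strand: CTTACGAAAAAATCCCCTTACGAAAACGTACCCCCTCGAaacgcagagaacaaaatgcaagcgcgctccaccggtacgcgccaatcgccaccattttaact
F44E7.4, chrV:5777100-5777200, minus strand: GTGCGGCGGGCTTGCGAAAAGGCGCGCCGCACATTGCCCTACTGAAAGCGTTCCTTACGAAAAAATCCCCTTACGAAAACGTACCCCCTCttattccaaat

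The 25 records of highest signal had signals of 944 to 225, led by tasp-1, rpl-3 and mog-4. The signal is the peak signal given in the deposited list, on an unstated scale. It was used to choose and rank the records, so the values that follow are a description. Each replicate's list has its own scale, so the replicates are compared only by percentile, the place of a record among the single-gene promoter records with a signal in that replicate. The first, tasp-1, encodes a threonine aspartase, a protease that cuts other proteins. Its record had a signal of 944, with 461 in the list of replicate 1 and 481 in that of replicate 2, with the summit at 61 bp upstream. The next, rpl-3, is a gene of the large ribosomal subunit. Its signal was 535, with 263 in replicate 1 and 270 in replicate 2, at 262 bp upstream. For mog-4, which encodes a DEAH-box helicase needed for the switch from sperm to oocytes, the signal was 481, with 278 in replicate 1 and 202 in replicate 2, at 253 bp upstream. The first record thus stood well above the second in each replicate, and mog-4 ranked above rpl-3 in replicate 1 and below it in replicate 2.

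The record of mtcu-2, which encodes an enzyme that modifies mitochondrial tRNAs, lay 465 bp upstream of that gene and inside an intron of let-268. Its signal was 409, with 172 in replicate 1 and 242 in replicate 2. For cdc-48.1, which encodes the p97-type ATPase that extracts ubiquitinated proteins, the signal was 408, with 198 in replicate 1 and 208 in replicate 2, at 159 bp upstream. For tos-1 it was 384, with 196 and 183 in replicates 1 and 2, at 119 bp upstream. By percentile the 3 stood at 97.1, 98.8 and 98.3 in replicate 1 and at 99.2, 98.4 and 97.5 in replicate 2, all near the top of both, and no test can be made from 1 value per replicate.

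A run of records between 341 and 304 followed. The ribosomal gene rpl-35 had 341 (173 in replicate 1, 167 in replicate 2). The cytosolic Hsp70 gene hsp-1 had 337 (178 in replicate 1, 154 in replicate 2), 398 bp upstream. K10D2.5 had 336 (150 in replicate 1, 179 in replicate 2), 86 bp upstream. All 3 were high in both replicates, at percentiles of 93.8 or above in replicate 1 and 94.7 or above in replicate 2. The cytochrome c oxidase gene cox-5B (chrI:9788611-9788765) had 330 (143 in replicate 1, 182 in replicate 2) at 41 bp upstream. The ribosomal gene rps-24 had 311, and eel-1, which encodes a HECT-type ubiquitin ligase, had 308. Both had 171 in replicate 1 and 155 in replicate 2. The record of epc-1, a homologue of the chromatin gene Enhancer of Polycomb (chrIII:12608287-12608533, signal 304, 157 in replicate 1 and 181 in replicate 2), was the only one of the 25 highest with its summit downstream of the 5′ end, by 68 bp.

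**Figure D1:**
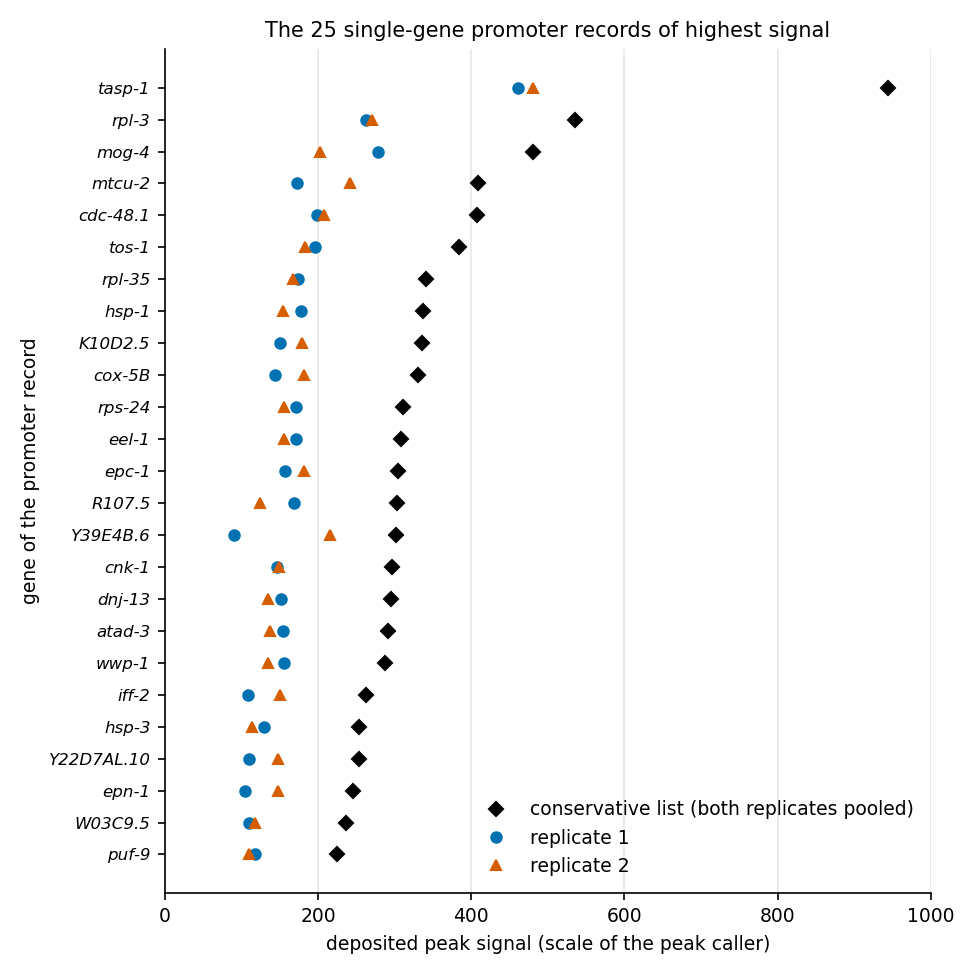
Signal of the 25 single-gene promoter records of highest signal (x axis, deposited signal) by gene (y axis), in the conservative list (diamonds) and in the own list of replicate 1 (circles) and of replicate 2 (triangles). The signals run from 944 at tasp-1 to 225 at puf-9, and Y39E4B.6 had 90.3 in replicate 1 (percentile 83.4) and 216 in replicate 2 (percentile 98.8), on scales that differ between lists.

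The remaining 12 of the 25 highest had signals of 303 to 225. They were R107.5, Y39E4B.6, cnk-1 (a scaffold protein of Ras signalling), dnj-13 (a DnaJ co-chaperone), atad-3 (a mitochondrial AAA ATPase), wwp-1 (a HECT-type ubiquitin ligase), iff-2 (translation factor eIF5A), hsp-3, Y22D7AL.10, epn-1 (epsin, of endocytosis), W03C9.5 and puf-9 (a Pumilio-family RNA-binding protein). Y39E4B.6 had 90.3 in replicate 1 and 216 in replicate 2, at percentiles of 83.4 and 98.8. R107.5 had 168 in replicate 1 and 124 in replicate 2, at percentiles of 95.9 and 91.4. All 25 were also in the thresholded list of each replicate, which is no separate evidence, since the replicates' reads make up the conservative list. Within the whole list, 11 of the 25 records of highest signal and 39 of the highest 100 were single-gene promoter records. Such records made up 36.2% of the whole list, so 39 of 100 was close to that share.

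The median signal was 105 in the 257 records (interval of the median 101 to 112), 118 in divergent promoter records (107 to 129) and 97.5 in records outside promoters (94.7 to 101). All 3 groups had quartiles far narrower than their range, which for single-gene promoters were 89.1 and 142 around a range of 3.34 to 944. Of the 3808 ranked candidate peaks in single-gene promoters, 257 (6.75%) were kept in the conservative list. In divergent promoters 20.7% of 551 were kept and outside promoters 1.86% of 18185, against 3.14% of all ranked candidates. These shares were not tested, because the same readout chose the records.

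A separate low group held 13 records, with signals of 3.34 to 20.4, while the other 244 had 68 or more. They belonged to drap-1, mask-1 (2 records), chaf-2, jmjd-1.2, klp-13, cyb-2.2, unc-16, pole-1, btf-1, pqn-59, R04E5.9 and kin-14. Each had a stronger record of the list 199 to 209 bp away, with a signal of 19.2 to 132. Neither replicate had a ranked summit within 100 bp of any of the 13. Where a ranked peak of a replicate overlapped one, its summit lay 132 to 277 bp off. Their GC content within 50 bp of the summit had a median of 40.6%. In the whole list 42 records had a signal under 50, and 41 of them had a stronger record within 250 bp. Merging overlapping records, which keeps the stronger one, also left 244 single-gene promoter regions.

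**Figure D2:**
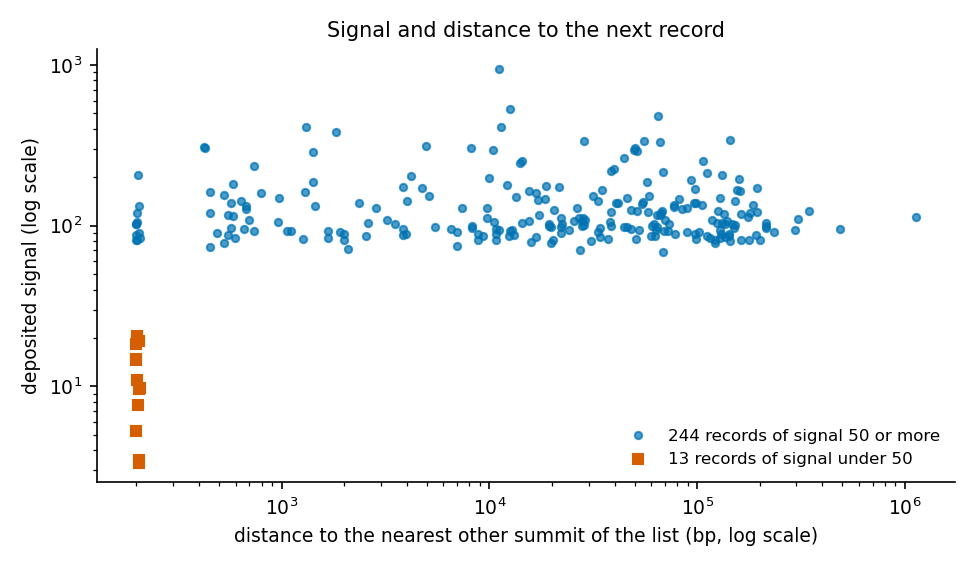
Signal of each single-gene promoter record (y axis, log scale) against the distance from its summit to the nearest other summit of the list (x axis, bp, log scale). The 13 records of signal under 50 (squares) all lie 199 to 209 bp from another summit, whereas the other 244 (circles) have signals of 68 or more and distances across the whole axis.

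Summits lay mostly upstream of the annotated 5′ end. Of the 257, 239 (93%) were upstream and 18 at or downstream of it, in a window that reaches further upstream than downstream. The median position was 206 bp upstream (interval of the median 184 to 229), with quartiles at 77 and 311 bp. The numbers per 100 bp upstream were 55, 54, 58, 43 and 29 from the nearest to the farthest, so that no one distance held most summits. The median signal in these bins was 103, 98.3, 111, 119 and 108, and 95.5 at or downstream of the 5′ end. Across the records signal and upstream distance had a Spearman rho of 0.11 (n = 257), given as a description, since all records share the same libraries.

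The 5′ end was the outermost one of the gene in 223 records and an inner one in 34. In 130 of the 223 the gene had a single annotated 5′ end, which is the outermost by definition. The gene lay on the plus strand in 138 and on the minus strand in 119. At 185 summits (72%) the base lay outside exons and outside protein-coding genes, at 29 in an exon of a protein-coding gene, at 22 in an exon of a non-coding gene and at 21 in an intron of a protein-coding gene. Upstream of the summit the nearest other protein-coding gene was on the opposite strand in 121 records, at a median of 1274 bp, and on the same strand in 121, at a median of 334 bp. The rule keeps opposite 5′ ends of protein-coding transcripts more than 500 bp away, so the first of these distances was set in part by it. The distances run to the annotated end of the gene, which can lie closer. At rsp-2 the opposite gene rsp-1 began 139 bp from the summit. The nearest opposite 5′ end of a protein-coding transcript was 751 bp away there. In 15 records the summit lay inside another protein-coding gene. The median signal was 108 where the upstream gene was on the opposite strand and 103 where it was in tandem.

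**Figure D3:**
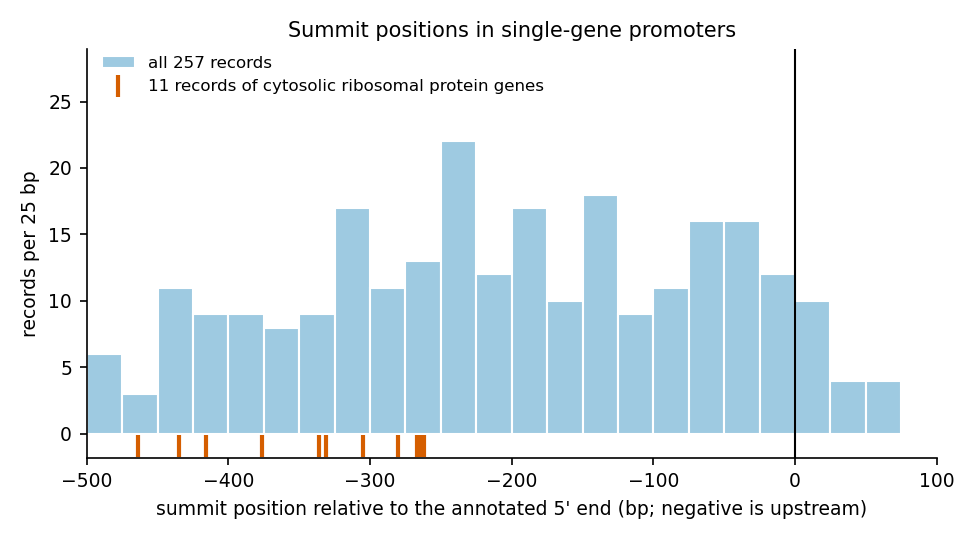
Number of single-gene promoter records per 25 bp (y axis) by the position of the summit relative to the annotated 5′ end (x axis, bp, negative upstream). The ticks under the axis mark the 11 records of cytosolic ribosomal protein genes, which all lie 262 to 464 bp upstream, while all 257 records have a median of 206 bp upstream.

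Genes were grouped by 20 lists built from gene names or symbols. These lists were made with earlier results of these data known. Counts are therefore given beside the share of all 19973 protein-coding genes that carried a single-gene promoter record, 1.23%, and no list was tested. The lists took in 49 of the 246 genes, and 197 genes were in none of them.

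The list of the large ribosomal subunit had the most genes with a record, 7, followed by splicing factors with 6. Of 50 genes of the large subunit 7 carried a record (14%, 95% Wilson interval 6.95 to 26.2), and of 33 genes of the small subunit 4 did (12.1%, 4.82 to 27.3). Together they were 11 of 83 (13.3%, 7.56 to 22.2). A divergent promoter record was carried by 7 genes of the large and 8 of the small subunit. The share of all protein-coding genes with such a divergent record was not computed. Besides rpl-3 and rpl-35, the large subunit had rpl-7 with a signal of 193 (91.8 in replicate 1, 100 in replicate 2) and rpl-41.2 with 125 (63 in replicate 1, 74.1 in replicate 2). The small subunit had rps-24, rps-28 at 174 (87.1 in replicate 1, 95.4 in replicate 2), rps-1 at 172 (92.4 in replicate 1, 73.5 in replicate 2) and rps-4 at 93.7 (47.7 in replicate 1, 43.8 in replicate 2). By percentile these 5 genes stood between 32.4 and 84.2 in replicate 1 and between 23.9 and 87.2 in replicate 2, with rps-4 the lowest of them in both. The median signal of the 11 was 172.

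The summits of the 11 ribosomal records lay 262 to 464 bp upstream, with a median of 331 bp, so none was in the nearer part of the window. It follows from these distances that with a window of 250 bp upstream to 50 bp downstream the count of ribosomal genes was 0. Of the 11, 1 held ACGCGC (rps-1), against 24.5% of all 257, and over so few records this was not tested. Their median GC content was 50.5%, the same as over all 257. Of the 11, 7 were in the thresholded list of replicate 1 and 8 in that of replicate 2. Over all 257 these shares were 48.2 and 54.5%.

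Of 40 translation factors 4 carried a record (10%, 3.96 to 23.1), led by iff-2 (signal 263, 108 in replicate 1 and 150 in replicate 2) and eef-1A.2, an elongation factor 1-alpha gene (149, with 70.7 in replicate 1 and 81.4 in replicate 2), followed by eif-3.C (148) and eif-3.B (90.8), subunits of initiation factor eIF3. Of 52 heat shock protein and DnaJ genes 4 did (7.69%, 3.03 to 18.2). These intervals overlap those of the ribosomal lists. The 4 were hsp-1, dnj-13 (295, with 152 in replicate 1 and 134 in replicate 2), hsp-3 (253, with 129 in replicate 1 and 114 in replicate 2) and dnj-9 (94.1, with 59 in replicate 1 and 38.1 in replicate 2). In divergent promoters 8 genes of this list and 4 of 8 genes of the CCT chaperonin carried a record. The share of all protein-coding genes with a divergent record was not computed, so these counts are not read as a result. No CCT gene carried a single-gene record (upper bound 32.4%, which lies above 1.23%). None of 31 aminoacyl-tRNA synthetase genes did (upper bound 11%), and the mitochondrial ribosome list had 1 of 70, mrpl-28 (1.43%).

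Among RNA and DNA machinery, 6 of the 52 genes of the splicing list carried a record (11.5%, 5.4 to 23). They were mog-4, tos-1, which the list took in by its symbol, rsp-2 (152, with 72.6 in replicate 1 and 78.7 in replicate 2), prp-8, the central protein of the spliceosome (136, with 59.3 in replicate 1 and 76 in replicate 2), snr-4 (111) and rsp-6 (83.6). Of the 29 genes of the DNA replication list 4 did (13.8%, 5.5 to 30.6). They were mcm-3AP (133), which the list took in by its name pattern, the helicase subunit mcm-2 (129, with 80.6 in replicate 1 and 50.9 in replicate 2), pcn-1, the sliding clamp PCNA (118, with 78.4 in replicate 1 and 49.4 in replicate 2), and pole-1, a DNA polymerase epsilon subunit (83.6, with 48.8 in replicate 1 and 39.9 in replicate 2). A name or symbol alone does not show that mcm-3AP or tos-1 acts in the process of its list. By percentile mcm-2 and pcn-1 stood at 78.8 and 76.8 in replicate 1 and at 43.6 and 39.9 in replicate 2. Both records were in the thresholded list of replicate 1 but not in that of replicate 2. Of 26 nuclear pore genes npp-18 (142) and npp-8 (138) carried a record, with 70.7 in replicate 1 and 68.7 in replicate 2 for npp-18, and 69 in replicate 1 and 68.9 in replicate 2 for npp-8.

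In energy and turnover, 3 of 45 genes of the respiratory chain and ATP synthase list carried a record. They were the cytochrome c oxidase genes cox-5B, cox-5A (213, with 112 in replicate 1 and 104 in replicate 2) and cox-4 (95.6, with 44.3 in replicate 1 and 43.9 in replicate 2). Of 21 vacuolar ATPase genes vha-12 (147) and vha-10 (70.8) did, and of 33 proteasome genes rpn-11 (103) and rpn-6.1 (89.2). Of 30 ubiquitin conjugation and CDC-48 genes 4 did (13.3%, 5.31 to 29.7), cdc-48.1, the SUMO-conjugating enzyme gene ubc-9 (128), ubc-3 (124) and ufd-3 (98.7). The germline and maternal RNA list had 3 of 40, puf-9 (225, with 117 in replicate 1 and 110 in replicate 2), mex-1 (92.5) and puf-11 (88), and the histone list 2 of 59, his-37 (104) and the linker histone hil-4 (85.1).

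Of 4 large gene families 3 had none and chemoreceptors had 1. None of 269 nuclear hormone receptors carried a record (upper 95% Wilson bound 1.41%), none of 172 cuticle collagens (2.18%) and none of 140 neuropeptide genes (2.67%). Of 1277 chemoreceptor genes srh-269 did (0.0783%, 0.0138 to 0.442), with a signal of 113 (54.4 in replicate 1, 54 in replicate 2). Its summit lay within 200 bp of a small non-coding RNA gene. The upper bounds for the first 3 families lie above 1.23%, so their lack of records does not set them apart from other genes.

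**Figure D4:**
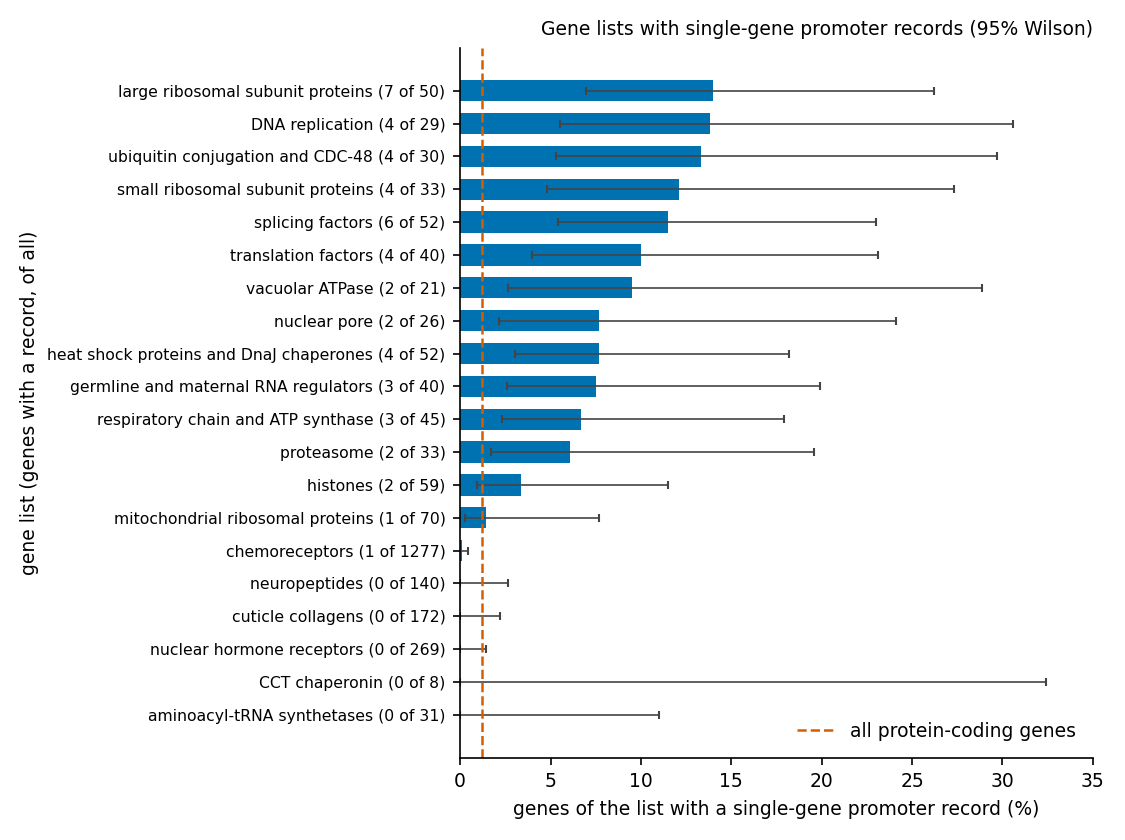
Share of the genes of each list that carried a single-gene promoter record (x axis, percent; bars, with 95% Wilson intervals) by list (y axis, with the counts), beside the share of all protein-coding genes (dashed line, 1.23%). The large ribosomal subunit list stood at 14%, and nuclear hormone receptor, collagen and neuropeptide genes had none.

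Summits stood in GC-rich sequence. In the 50 bp on either side the median GC content was 50.5% in the 257 records (interval of the median 49.5 to 51.5), 48.5% in divergent promoter records (47.5 to 50.5) and 48.5% in records outside promoters (47.5 to 49.5). Windows of the same length centred 206 bp upstream of all 19973 protein-coding genes had a median of 33.7%, with quartiles at 28.7 and 39.6%. Of the 257 records 252 were at or above that median. GC content at the records thus stood above that of most annotated promoters, while the medians of the 3 classes of records lay close to each other. Signal and GC content had a Spearman rho of 0.34 across the records (n = 257), a description over records of the same libraries.

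The word ACGCGC, searched on both strands with GCGCGT, lay within 50 bp of 63 summits (24.5%, 95% Wilson interval 19.7 to 30.1). It lay near 14.9% of divergent promoter summits (9.52 to 22.6), 10.9% of summits outside promoters (8.05 to 14.7) and 2.38% of the windows of all promoters. The word had first been ranked on these same regions, so its share is a description, and the differences between classes were not tested. The 63 records held 72 copies, 43 on the strand of the gene and 29 on the other. Of these copies 33 lay within 25 bp of the summit. Their median distance was 26.5 bp in a search that reached 50 bp, so the count shows no gathering at the summit. The most in one record was 3, at epn-1 and at T19H12.2. Records with the word had a median signal of 106 and those without it 105. With the records split by signal into 4 equal bins, from low to high, the word lay in 24.6, 23.4, 25 and 25% of them, so its share was about the same at every level of signal.

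Related words were also common. CGCGC, which overlaps ACGCGC, was found in 127 records (49.4%, 43.4 to 55.5), in 38.6% of divergent and 24.3% of outside records, and in 5.71% of all promoter windows. Words of 6 bases were also ranked, but only those above a minimum share of the records, so rarer words are not covered. By the ratio of their share in the records to that in all promoter windows, GCGCGC came first (13.8) and ACGCGC seventh (10.3). The words GAGCGC (19.1%) and CGCTCC (14.4%) were as common in divergent records (19.3 and 14.9%) as in single-gene ones, and GTCTC lay in 38.1% of single-gene, 36% of divergent and 26% of outside records, against 12.5% of all promoter windows. The AT-rich word TATAAA was found in 6.61% of the records and in 13.1% of all promoter windows, and TTCNNGAA, the core of the heat shock element, in 1.95 and 6.56%. The promoter windows were not matched to the records for GC content, whose medians were 33.7% and 50.5%. How far base composition sets the shares and ratios of these words, ACGCGC included, was not tested. These words were searched on both strands, and a match is a string of letters, not a binding site.

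**Figure D5:**
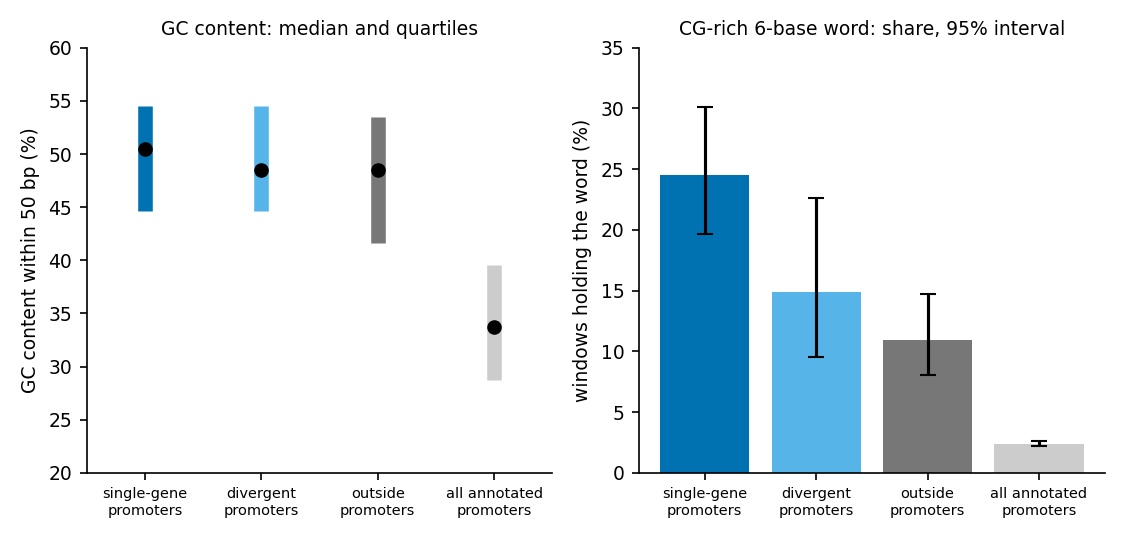
Left, GC content within 50 bp of the summit (y axis, percent; points are medians, bars the quartiles). Right, share of windows that held the 6-base word named in the text (y axis, percent, with 95% Wilson intervals), in each case for single-gene, divergent and outside records and all annotated promoters. GC medians were 50.5, 48.5, 48.5 and 33.7%, and shares were 24.5, 14.9, 10.9 and 2.38%.

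Where the upstream gene stood head to head, 28.9% of 121 records held ACGCGC (21.6 to 37.6), and where it stood in tandem 21.5% of 121 did (15.1 to 29.6). These intervals overlap, and the difference was not tested. On chromosome X, which held 22 of the records (8.56%, where 13.7% of protein-coding genes lie), the median GC content was 55% and 31.8% held the word. Chromosome I held 22.6% of the records against 14.4% of the genes, III 19.8% against 13.2%, and V 16% against 25%. Of the whole list's records, 58 of 145 on I, 51 of 132 on III and 41 of 107 on V were single-gene promoter records. On X it was 22 of 95, and over all chromosomes 257 of 709. These differences were not tested.

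Part of the records shared long runs of identical sequence, as the printed windows show. Records and the 50 bp on either side of their summits were compared over runs of 24 bases or more, between sites more than 1000 bp apart. Such runs joined 29 records (11.3%) into 6 groups, 3 of them pairs. The largest, shown above, held 9 records at rps-24, eel-1, atad-3, enu-3.3 (2 records), C26B2.7, C09E7.7, cpt-2 and spd-5, with a longest run of 84 bases between cpt-2 and spd-5. Its most shared 24 bases had 65 copies in the genome, of which 20 lay in single-gene promoters and 15 lay at records of the conservative list. Most copies thus had no record. The runs were picked from these records, so copies in them are no result.

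The second family held mtcu-2, unc-85 (an ASF1-type histone chaperone gene), F44E7.4, T02E1.2 (2 records), npp-18 and Y48G10A.2, with a longest run of 104 bases between mtcu-2 and F44E7.4. Of 19 genome copies of its most shared 24 bases, 9 lay at records of the list. Another, with cnk-1, kin-35, mcm-3AP, mmab-1, B0205.9, B0205.1 and pqn-51, had 97 copies, of which 12 lay at records. The median signal was 133 in records with such a run and 104 in the other 228, and 5 of the 25 highest records had one. A soft-masked summit base, which marks a repeat, was found in 8 of the 29 and 31 of the 228. Over all 257 the share was 15.2% (11.3 to 20.1), against 27.2% of divergent and 20.4% of outside records. Reads from near-identical copies can be placed at the wrong copy, and no source used here says how such reads were treated.

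Small non-coding RNA genes were rarely near. Of the 257 summits 13 (5.06%) lay within 200 bp of one, 7 at tRNA, 5 at snoRNA and 1 at snRNA genes and 0 at miRNA genes, against 5.26% of divergent and 28.7% of outside records. At these 13, which include snr-4, srh-269, kvs-3 and T02E1.2, the promoter of the protein-coding gene and that of the non-coding gene cannot be told apart. Their signals reached at most 139, with a median of 103, so none was among the 25 highest.

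The replicates were compared through their own lists. The thresholded list of replicate 1 overlapped 124 of the records (48.2%, 95% Wilson interval 42.2 to 54.3), against 43.9% of all 709 records. That of replicate 2 overlapped 140 (54.5%, 48.4 to 60.5), against 52.8% of all. Both lists overlapped 91, and neither overlapped 84. A ranked peak with its summit within 100 bp was present in both replicates for 240 records, and its summit lay within 50 bp in 222 of them in replicate 1 and 225 in replicate 2. Across these 240 the signals had a Spearman rho of 0.60 and the log2 signals a Pearson r of 0.79, a description of records that had been kept because their ranks recur. In the same 4 bins of signal, from low to high, replicate 1 overlapped 5, 14, 42 and 63 records and replicate 2 overlapped 15, 19, 44 and 62, of 65, 64, 64 and 64 records.

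Some records ranked high in one replicate and low in the other. Those that ranked higher in replicate 1 by the widest margin were ntl-11 (94.4 in replicate 1, 41 in replicate 2), eas-1 (69.7 and 32.7) and kvs-3, a potassium channel gene (66.9 and 36.4). They stood at percentiles of 85.5, 70.5 and 64.3 in replicate 1 and 15.2, 0.823 and 3.7 in replicate 2, all in the thresholded list of replicate 1 but not of replicate 2. Those that ranked higher in replicate 2 were pqn-70 (33.9 in replicate 1, 70.9 in replicate 2), cpt-2, a carnitine palmitoyltransferase gene (37.5 and 69.8), and eelo-2 (34.1 and 62.5). Their percentiles were 0.415, 3.73 and 0.83 in replicate 1 and 72.4, 70.4 and 65.8 in replicate 2. With 1 value per replicate there is no test of any of these gaps.

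At the bounds of the rule, ari-1.4 and a record of T02E1.2 were the farthest upstream inside it, at 499 bp, and the record of nstp-10, at 511 bp, was the nearest outside. Downstream, T02E1.2 (72 bp) and epc-1 (68 bp) were inside and pcf-11 (106 bp) outside. The nearest opposite 5′ end of a protein-coding transcript was 502 bp away at enu-3.3 and 503 bp away at rps-1, both inside. At elmd-1, outside, it was 411 bp away. In reproducibility, eelo-2 was inside at an irreproducible discovery rate of 0.00995, and arf-1 and atg-9 were outside at 0.0108. The threshold was 0.01.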

How the data were processed

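The authors called peaks in each of 2 replicates and in their pooled reads, against a control, on ce11 (WBcel235), per the deposited text records. Aligner, peak caller and versions were not given in the sources used here. Lists were then filtered by IDR, the irreproducible discovery rate, an estimate of how many peaks down to a rank fail to recur, and the conservative list compared the 2 replicates. Thresholded lists derive from 1 further file of unstated content. The score is a rescaled IDR made by the authors, up to 1000. The deposited peak signal is on an unstated scale. The ranked lists also give the deposited −log10 IDR. No list gives read counts, so depth is unknown and intervals cover only the number of records or genes. Signals of different lists are not levels on one scale. Replicate signals came from each replicate's own ranked list, for a ranked summit within 100 bp, and 16 columns of the ranked series lists were not used.

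Summits were placed by Ensembl release 115 with Python 3.11.15, numpy 2.4.6, pandas 2.3.3, scipy 1.17.1 and matplotlib 3.10.9. The sequence background was 101 bases centred 206 bp upstream of the outermost 5′ end of each of 19973 protein-coding genes. No sequence of chromosome I is printed. The scripts were tested on simulated data. Shares have 95% Wilson intervals and medians have 95% order-statistic intervals. No hypothesis test was made, since the 2 samples form 1 group. The members, the lists and the named items were chosen with earlier results of these data known. Named items are the 25 members of highest signal, up to 4 members of highest signal from each list with any, the 3 members in each direction whose percentile ranks differ most between replicates, and the records just inside and outside each bound. Where more are named (the remaining members of a list, the low-signal records, the groups of shared sequence), they were named after their values were seen. Alternatives were other peak lists, thresholds, windows, distances, merging and the removal of masked, non-coding or low-signal records.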

Additional observations from a re-analysis of the deposited data

How the results depend on the processing

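Of 94 values computed under alternatives, 73 stayed close to the reported value and 21 moved. Close means within 1.5 times for a count and within the 95% interval for a share or a median. With the list of 1 replicate alone (without replicate 1 or without replicate 2), the ranges were 131 to 159 records, 131 to 158 genes, 6 to 7 ribosomal protein genes and 38.4 to 40.3% of the list, against 257, 246, 11 and 36.2%. The median distance was then 215 to 229 bp, GC content 50.5 to 51.5% and the share with ACGCGC 20.6 to 21.4%. At IDR 0.001 there were 138 records and 136 genes. A window of 250 bp upstream to 50 bp downstream gave 157 records, 22.1% of the list, 155 genes, a median of 128 bp and 0 ribosomal protein genes. The last value follows from the ribosomal summits, which lay 262 bp or more upstream. A window of 1000 bp upstream gave 39.9%, a median of 288 bp and 19.1% with ACGCGC. With opposite 5′ ends kept 1000 bp away the share of the list was 29.3%, and without records near non-coding genes it was 41.1%. Within 100 bp of the summit GC content was 44.8% and the share with ACGCGC 31.1%. Other than the fewer or longer stretches that these settings themselves take in, the cause was not tested. Removing records of signal under 50, an alternative chosen after seeing the data, moved no value beyond these limits. No paired analysis was possible because the 2 samples form 1 group. Without an untagged strain or read counts, these lists cannot separate binding of the tagged protein from other sources of peaks.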
